A study of Mus musculus with 4 samples.

Results

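The genes that flank the 2 deleted miR-1 loci were followed in whole mouse hearts. Members were chosen by position and by level. Their deposited locus (build mm9) starts within about 5 Mb of the miR-1 gene on chromosome 2 or chromosome 18, and their FPKM is 1 or more in any of the libraries. FPKM counts fragments per kilobase of transcript and per 1000000 fragments. Of the 22552 rows in each table, 143 lie in the 2 windows. From these, 8 were left out by name (Mib1, Gata6, Sox18, Lama5, Col20a1, Col9a3, Colec12 and Rps21) and 58 stayed below FPKM 1 in every library, which leaves 77 members, 47 on chromosome 2 and 30 on chromosome 18. Just inside the minimum are Taf4b and Psma8, whose highest values are 1.009 and 1.18 FPKM. Just outside it are Lama3 and Greb1l, at 0.901 and 0.831 FPKM.

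The groups are hearts labelled dKO, in which both miR-1 genes are knocked out, and hearts of littermate controls labelled dHET, at postnatal day 2.5 (P2.5) and at embryonic day 15.5 (E15.5), all labelled strain Sv129. Each of the 4 groups is 1 library of poly-A selected RNA. There is thus no replicate error for any value, and each difference is one between a pair of libraries. The P2.5 table heads its control column as hetero, so those controls, if heterozygous as named, carry deleted copies as well. In the E15.5 table the heading of the control column reads WT although its sample carries the label dHET, so the genotype of that control is uncertain.

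MicroRNA miR-1 is made in heart and skeletal muscle from a pair of genes on different chromosomes, each beside a gene for miR-133a. It lowers transcripts that pair with its seed, mostly through their 3' UTR. A targeted deletion removes the microRNA gene from its place among other genes, and the genes beside it are inherited together with the deleted allele. Neighbours of a deleted locus are for that reason often looked at when a knockout is compared with its littermates. The genes around the miR-1 loci have no shared function. They include subunits of the proteasome, splicing proteins, zinc finger factors, lipid carriers and membrane proteins.

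On chromosome 2 the gene Mir1a-1 lies at chr2:180123753-180123829 (NCBIM37, the assembly of mm9, plus strand), between annotated genes in GENCODE release M1. Its 5' arm is shown because it comes from the deleted chromosome 2 gene itself, with bases 2 to 8 in capitals, from RefSeq on GRCm38.p6.
mmu-miR-1a-1-5p: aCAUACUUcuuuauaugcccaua
The other arm is the one that pairs with ACATTCC in target transcripts. Of the 7 chromosome 2 members with that word in the 3' UTR, the sites of the 4 that were counted at either stage are shown, because these neighbours of the deleted gene carry a seed match and have values high enough to compare. They are read from the NCBIM37 transcripts with the match in capitals.
Rgs19, chr2:181423450-181423479, minus strand: tgtactcctctACATTCCAaagacatgaaa
Zbtb46, chr2:181124430-181124458, minus strand: aaactatcaagACATTCCgtccctcatcc
Dnajc5, chr2:181284919-181284947, plus strand: ggtcatcttccACATTCCttcaagccaac
Znf512b, chr2:181319141-181319169, minus strand: tcaaggctcagACATTCCtggtgacccat

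These 4 genes lie between 1.002 and 1.299 Mb after Mir1a-1, and their values are given with the other seed carriers.

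On chromosome 18 the microRNA cluster lies inside an intron of Mib1, on the opposite strand. Its position was taken from Mir133a-1, at chr18:10782897-10782983, since the annotation used here does not place Mir1a-2.

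Most flanking genes differed little between dKO and dHET hearts. At P2.5, 4 of 47 members counted differed by at least 1.5-fold. Mpp7 and Ogfr were higher in the dKO library, and Npc1 and Aqp4 were lower. At E15.5, 0 of 50 members counted passed that fold. A change is the log2 ratio of FPKM + 1 in dKO to FPKM + 1 in dHET of the same stage, so 1.5-fold is 0.58 on that scale, and a member was counted when its FPKM was at least 5 in either library of the stage. Of the 77 members, 45 were counted at both stages, 2 at P2.5 only, 5 at E15.5 only and 25 at neither. No test was possible. With 5 in place of 1 added to each FPKM, 0 members passed 1.5-fold at P2.5, since the 4 changes then lay at 0.52 (Ogfr), 0.42 (Mpp7), -0.57 (Npc1) and -0.49 (Aqp4). The authors' deposited tables call 0 of the members significant at either stage, out of 55 rows called in all at P2.5 and 135 called at E15.5.

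The shares stand beside those of all genes counted the same way. At P2.5, 3.59% of 8197 genes were higher and 1.15% lower in dKO by at least 1.5-fold (4.73% in either direction), and 2 of 47 members were on each side. On the rest of chromosomes 2 and 18 the shares were 2.66% higher and 0.969% lower of 826 genes (3.63% in either direction). At E15.5, 0.494% of 8308 genes were higher and 0.566% lower (1.06% in either direction), and on the rest of the 2 chromosomes 0.238% of 840 genes were on each side (0.476% in either direction). The members' own share at P2.5 was 8.51%, which rests on 4 genes, and its difference from the other shares was not tested.

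Medians were close to those of other genes. At P2.5 the median over members was 0.030, against 0.080 for the rest of chromosomes 2 and 18 and 0.083 for all counted genes. At E15.5 the medians were 0.00096 for members, -0.018 for the rest of the 2 chromosomes and -0.012 for all genes. Chromosome 2 members had medians of 0.12 at P2.5 and 0.023 in the E15.5 pair, and 21 of 28 and 19 of 31 lay above 0. Chromosome 18 members had medians of -0.068 and -0.073, and 6 of 19 lay above 0 at each stage. On the rest of chromosome 2, 404 of 635 genes lay above 0 at P2.5 and 300 of 645 in the E15.5 pair, with medians of 0.087 and -0.012. On the rest of chromosome 18, 110 of 191 genes lay above 0 at P2.5 and 79 of 195 at E15.5, with medians of 0.051 and -0.033. For chromosome 2 members the side of 0 of the P2.5 median depended on the scaling, in a comparison added after seeing the data. That of chromosome 18 members, already below 0, stayed there. Both scalings moved the P2.5 median of all genes down, by -0.083 and -0.16, so this is no check of its side. After centring on the median of all genes, the P2.5 medians were 0.033 for chromosome 2 members and -0.15 for chromosome 18 members. After rescaling to a sum of 1000000 both lay below 0, at -0.046 and -0.24. The rest of chromosome 2 then had a median of 0.0046 after centring and -0.075 after rescaling. The rest of chromosome 18 had -0.031 and -0.11.

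**Figure D1:**
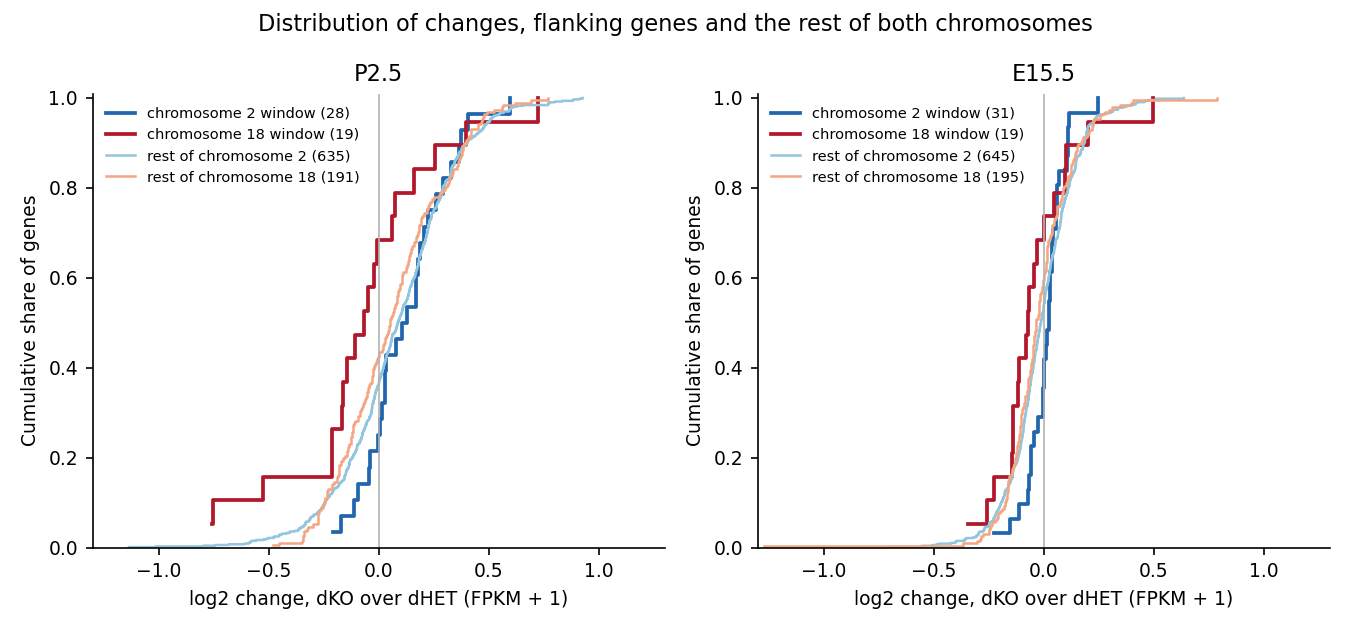
Cumulative share of genes by log2 change (dKO over dHET, FPKM + 1) at P2.5 and E15.5, for counted members of each window and for counted genes on the rest of each chromosome, with gene numbers in brackets. The chromosome 18 line lies left of the others around 0, where 13 of 19 members are below 0 at each stage, and the chromosome 2 line is steep, with 28 of 31 members within 1.1-fold at E15.5.

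The 4 libraries differ in ways that touch every value. At P2.5 Xist, the transcript of the inactive X chromosome, stood at 50.7 FPKM in dKO and 0.101 in dHET, and the Y-linked Ddx3y at 0 in dKO and 11.7 in dHET, so sex and genotype cannot be told apart at that stage. At E15.5 Xist was at 0.113 in dKO and 0.0550 in dHET, and Ddx3y at 14.8 in dKO and 15.3 in dHET. All members are autosomal. Heart muscle markers summed to between 10525 and 24196 FPKM, although dKO lists 0 for Myh6 in the P2.5 pair and for Myh7 in the other, both under a flag for too much data. Summed liver, lung and thymus markers were at or below 0.671 FPKM in every library. Atrial markers summed to 1252 FPKM in dKO and 254 in dHET at P2.5, and to 2335 in dKO and 1698 in dHET at E15.5, with 4 of 4 higher in dKO in each pair. Smooth muscle markers summed to 1768 FPKM in dKO and 696 in dHET at P2.5, and to 1363 in dKO and 828 in dHET at E15.5. Most of that sum was Acta2, and 3 of the 4 markers were higher in dKO at P2.5 and 2 of the 4 at E15.5. Macrophage markers summed to 23.6 in dKO and 31.1 in dHET at P2.5, and 4 of 4 counted markers were lower in dKO. At E15.5 these sums were 19.2 in dKO and 19.7 in dHET. Erythroid markers summed to 311 in dKO and 197 in dHET at P2.5, and epicardial markers to 18.7 in dKO and 23.5 in dHET. Endothelial markers summed to 314 in dKO and 270 in dHET at P2.5, with 5 of 5 higher in dKO. Fibroblast markers summed to 489 in dKO and 490 in dHET at P2.5, but 4 of 5 were lower in dKO. At E15.5, 4 of 5 endothelial markers were higher and 4 of 5 fibroblast markers lower in dKO. Their part in the changes below was not tested. Rescaling each P2.5 library to a sum of 1000000 moved the median change of all genes by -0.16, so the changes are read relative to other genes.

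The changes past 1.5-fold on chromosome 18 were those of Mpp7, Npc1 and Aqp4, which lie at different distances from the microRNA cluster. In whole hearts, fewer cells that express a gene and less RNA per cell cannot be told apart. Mpp7 (chr18:7347960-7626861, minus strand) encodes a membrane-associated scaffold protein of cell junctions and lies 3.16 Mb from the cluster. It had 5.996 FPKM in dKO and 3.23 FPKM in dHET at P2.5. At E15.5 it had 7.04 FPKM in dKO and 4.70 FPKM in dHET. Mpp7 was thus the higher in the dKO library of both pairs, by 0.72 and 0.50 on the log2 scale. Of all counted genes, 1.74% were as much higher or more in the P2.5 pair, and 0.843% in the E15.5 pair. At both stages it was counted through the dKO library alone, where its FPKM is above 5.

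Npc1 (chr18:12348202-12394909, minus strand) encodes the membrane protein that exports cholesterol from late endosomes and lysosomes, and its deposited locus lies 1.54 Mb from the cluster. It had 8.33 FPKM in dKO and 14.8 FPKM in dHET at P2.5. At E15.5 the values were 8.48 FPKM in dKO and 10.3 FPKM in dHET. The P2.5 dHET library listed the highest of the 4 values. Reads were single at P2.5 and paired at E15.5, so levels are not read across the stages. The changes were -0.76 and -0.26, and 0.451% of counted genes were at least as much lower at P2.5, against 4.19% at E15.5. Npc1 and 3110002H16Rik (now Rmc1) share 1 deposited locus, so their reads may not be fully separated. 3110002H16Rik itself was at 13.1 FPKM in dKO and 12.5 in dHET at P2.5, a change of 0.058.

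Aqp4 (chr18:15547903-15562193, minus strand) encodes a water channel and lies 4.76 Mb from the cluster, near the end of the window. It had 4.89 FPKM in dKO and 8.92 FPKM in dHET at P2.5. At E15.5 it had 6.25 FPKM in dKO and 8.20 FPKM in dHET. Aqp4 was the lower in dKO in both pairs, by log2 changes of -0.75 and -0.34. Of all counted genes, 0.512% were as much lower or more in the P2.5 pair, and 1.61% in the E15.5 pair. In the authors' deposited table its q value at P2.5 was 0.266, the lowest of any member at that stage, and at E15.5 the lowest was that of Mpp7, 0.276. At P2.5 it was counted through the dHET library alone. The P2.5 sums of atrial, smooth muscle, endothelial, macrophage, erythroid and epicardial markers given above differed between the same pair of libraries, as did single fibroblast markers and the sex genes.

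**Figure D2:**
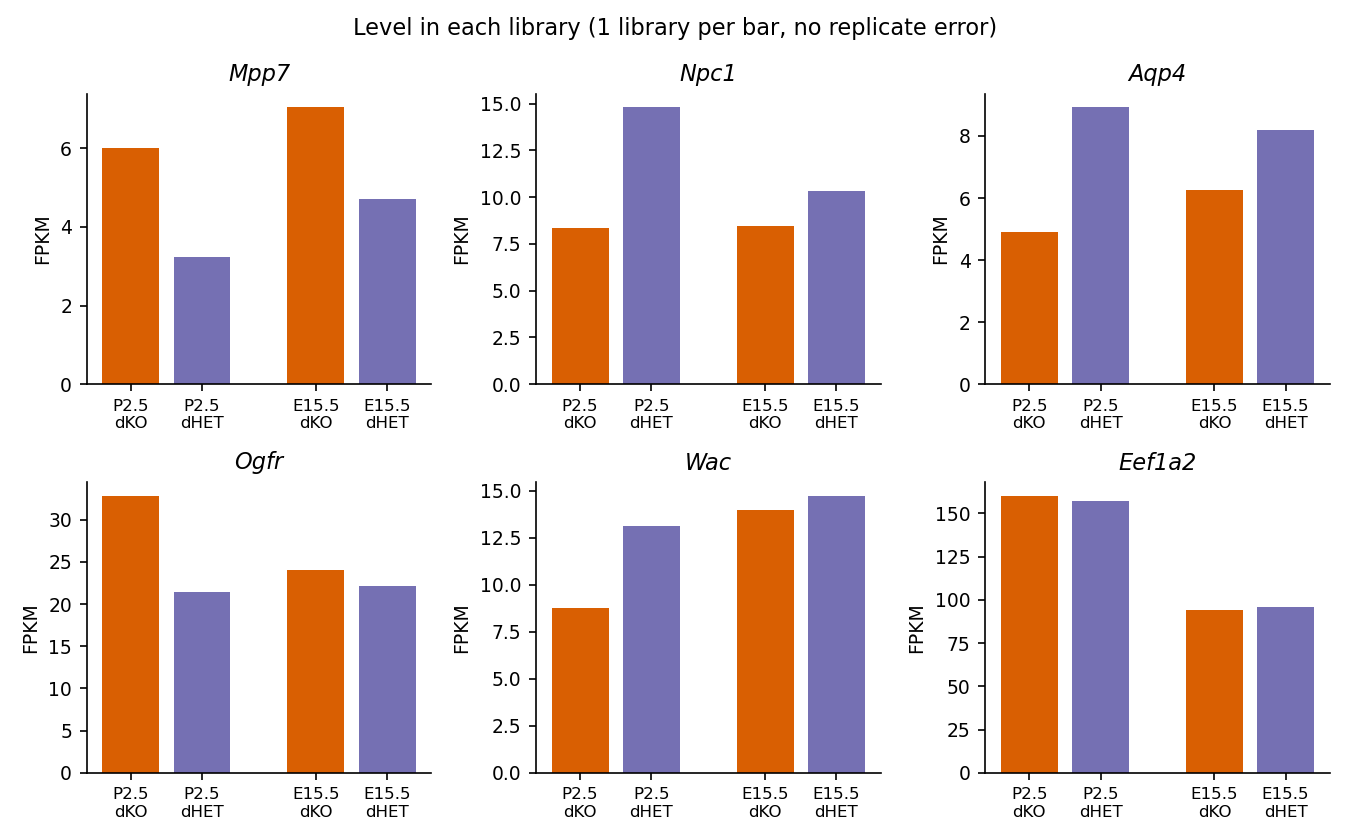
FPKM in each library (vertical axis from 0, 1 library per bar, so no error bars) for the 4 members past 1.5-fold at P2.5, for Wac and for Eef1a2, the most abundant member. Mpp7 is higher, and Npc1 and Aqp4 are lower, in the dKO bar of both stages, whereas the Ogfr and Wac bars differ mainly at P2.5.

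On chromosome 2 the only counted member past 1.5-fold was Ogfr, and that call depended on the scaling. Ogfr (chr2:180323950-180330541, plus strand) encodes the receptor for opioid growth factor and lies 0.200 Mb after Mir1a-1. It had 32.8 FPKM in dKO and 21.4 FPKM in dHET at P2.5, and 24.03 FPKM in dKO and 22.2 FPKM in dHET at E15.5. The P2.5 change of 0.60 lay at the edge of the threshold. At E15.5 the change was 0.11, which 19.4% of all counted genes reached or passed in that direction. After centring on the median of all genes the P2.5 change was 0.51, and after rescaling to a sum of 1000000 it was 0.44, both within 1.5-fold. Under these scalings the members split into 1 higher and 3 lower, where all genes split into 180 higher and 161 lower after centring and 153 and 321 after rescaling.

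Among the named members nearest to the deleted genes, Ogfr alone passed 1.5-fold. The 5 nearest counted members with full gene names on chromosome 2 were Cables2, Ogfr, Osbpl2, Dido1 and Gtpbp5. Cables2, of the Cables family of kinase partners, lies 0.116 Mb before Mir1a-1. It had 5.76 FPKM in dKO and 6.31 in dHET at P2.5, and 5.93 in dKO and 6.26 in dHET at E15.5, changes of -0.11 and -0.067. Osbpl2, an oxysterol-binding protein, had changes of 0.10 and 0.036. The chromatin protein gene Dido1 had 13.3 FPKM in dKO and 13.0 in dHET at P2.5, and 15.7 in both libraries at E15.5. Gtpbp5, whose current symbol is Mtg2 and which encodes a GTPase of the mitochondrial ribosome, had changes of 0.26 and 0.027. Cables2 has a near-identical stretch elsewhere in the genome over 94.5% of its transcript, so its values are uncertain.

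Gata5, a cardiac and endocardial transcription factor, is the nearest protein-coding member on chromosome 2, 0.0544 Mb before Mir1a-1, and was named after its values were seen. It stood at 0.510 FPKM in dKO and 0.428 in dHET at P2.5. At E15.5 it stood at 3.05 FPKM in dKO and 2.70 in dHET. These levels are below the value at which changes were counted, and the log2 changes were 0.080 and 0.13.

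On chromosome 18 the nearest such members included Snrpd1, Thoc1, Usp14 and Rbbp8. Snrpd1, a core protein of the spliceosomal ribonucleoproteins, lies 0.155 Mb before the cluster. It had 20.7 FPKM in dKO and 15.5 in dHET at P2.5, and 11.6 in dKO and 11.2 in dHET at E15.5. Its P2.5 change of 0.40 was reached or passed by 11.6% of all counted genes, and it has a near-identical copy elsewhere over 86.5% of its transcript. Thoc1, of the complex that couples transcription to mRNA export, had changes of -0.022 and -0.14, and Usp14, a deubiquitinase of the proteasome, had changes of -0.11 and -0.12. Both share a deposited locus. Rbbp8, which acts in DNA end resection, was counted at E15.5 only, and there through the dHET library alone. It had 4.48 FPKM in dKO and 5.42 in dHET (-0.23).

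By distance to the deposited locus, 11 members counted at P2.5 lay under 0.5 Mb from the deleted gene or its cluster. Their median change was 0.17, and 1 of the 11 passed 1.5-fold. For the 11 members between 0.5 and 1 Mb the median was 0.080, and 0 passed. Between 1 and 2.5 Mb the median of 16 members was 0.022 and 1 passed, and beyond 2.5 Mb the median of 9 members, all on chromosome 18, was -0.15 and 2 passed. At E15.5 the medians of these 4 bins were 0.023, -0.027, 0.014 and -0.058, over 11, 13, 18 and 8 members. The P2.5 medians were lower with distance, and the bins also hold different chromosomes: 10 of the 11 nearest members are on chromosome 2. On chromosome 2 alone the P2.5 medians were 0.14, 0.15 and 0.022 over 10, 8 and 10 members. On chromosome 18 alone they were 0.40, -0.022, -0.053 and -0.15 over 1, 3, 6 and 9 members, so also lower with distance. At E15.5 the chromosome 18 medians were 0.049, -0.14, -0.067 and -0.058 over 1, 3, 7 and 8 members. The bins are small, and a part of distance was not tested.

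**Figure D3:**
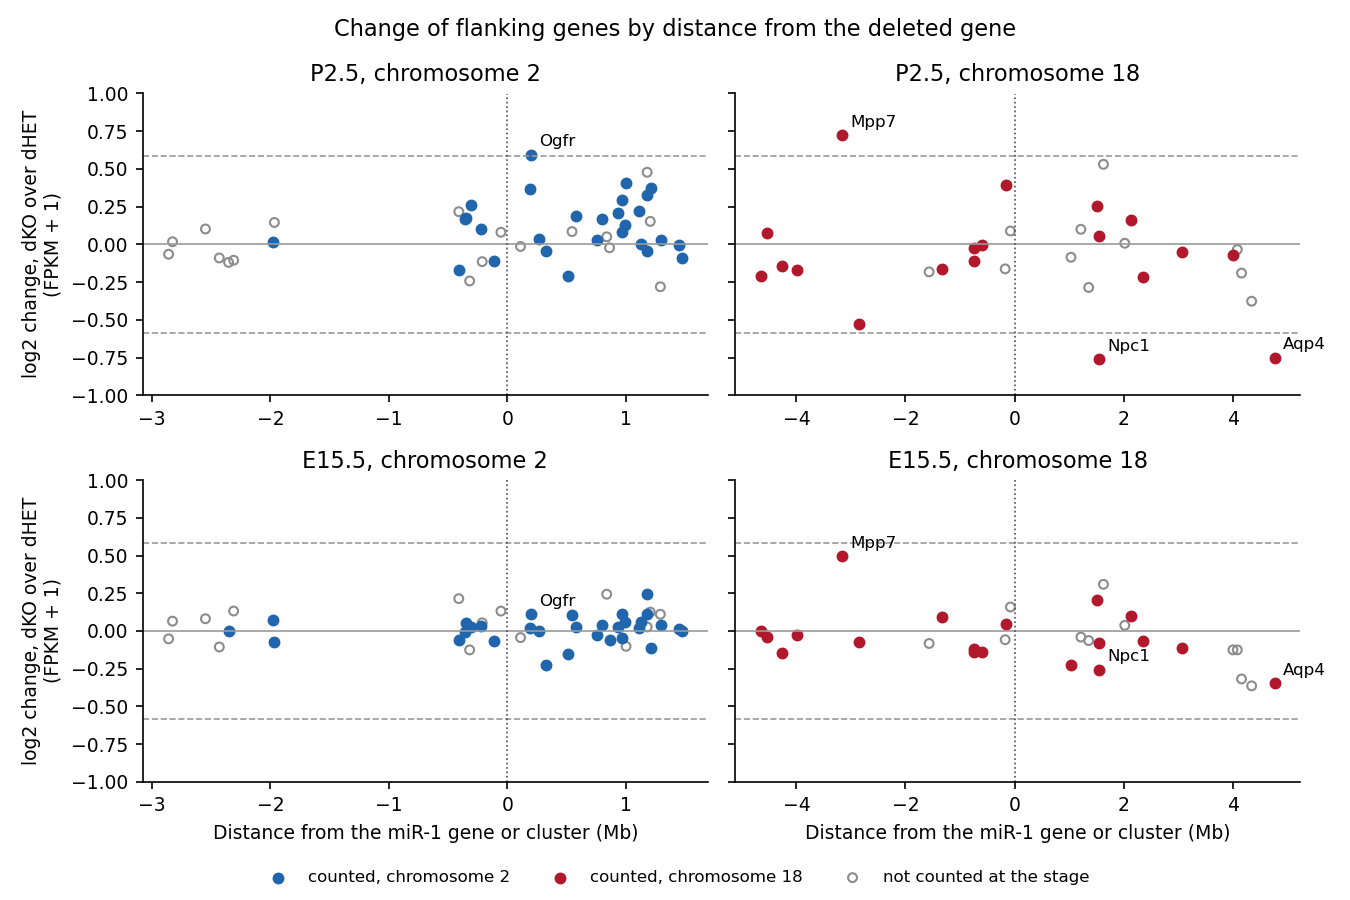
Log2 change (dKO over dHET, FPKM + 1) of each member against its distance in Mb from Mir1a-1 on chromosome 2 or the microRNA cluster on chromosome 18, by stage; negative distances lie before the gene. Filled points were counted, open points were not, dashed lines mark 1.5-fold, and the row of Mir133a-2 is not drawn. The 3 labelled chromosome 18 genes lie 1.54, 3.16 and 4.76 Mb away, with members near 0 between them.

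Grouped by function, each group held members on both sides of 0. The 12 members of vesicle traffic, lipid transport and the cytoskeleton included both Mpp7 and Npc1, so 1 of 11 counted at P2.5 was higher and 1 lower, and at E15.5 0 of 11 passed 1.5-fold. Their median changes were 0.080 and 0.024. Osbpl1a, a sterol-binding protein of endosomes, was at 18.03 FPKM in dKO and 16.03 in dHET at P2.5, and at 13.1 in dKO and 12.2 in dHET at E15.5. The kinesin motor Kif5b had 36.1 FPKM in dKO and 34.2 in dHET at P2.5, and the GTPase Rab18 had 38.8 in dKO and 43.7 in dHET. At E15.5 Kif5b had 44.5 in dKO and 45.9 in dHET, and Rab18 had 35.4 in dKO and 36.1 in dHET. Near-identical stretches elsewhere in the genome cover 43.0% of the Kif5b transcript. Dnajc5, a cochaperone of synaptic and secretory vesicles, had between 30.1 and 32.1 FPKM in all 4 libraries.

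Of 11 genes for cell surface proteins, receptors, channels and signalling, 7 were counted at P2.5, with Ogfr higher and Aqp4 lower, and 8 at E15.5, with 0 past 1.5-fold. Their medians were 0.015 and 0.066. The Wnt receptor Fzd8, at between 2.18 and 3.04 FPKM, was below the counted level and had changes of -0.18 and -0.083.

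Among 7 genes of RNA processing the P2.5 median was 0.25 and the E15.5 median -0.046, and 0 of 7 passed 1.5-fold at either stage. Prpf6, of the U4/U6.U5 spliceosomal particle, had 18.7 FPKM in dKO and 14.2 in dHET at P2.5, but 17.2 in dKO and 18.6 in dHET at E15.5. The kinase gene Riok3 was higher in dKO in both pairs, with 28.5 FPKM in dKO and 23.8 in dHET at P2.5, and 22.3 in dKO and 19.3 in dHET at E15.5. The reader of methylated adenosine Ythdf1 was lower in both, with changes of -0.21 and -0.15. None of these 3 changes reached 1.5-fold.

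Of the 7 proteasome and protein turnover genes, 4 were counted at each stage and 0 passed 1.5-fold. Wac, an adaptor linked to histone H2B ubiquitination, came closest, and near-identical stretches elsewhere in the genome cover 36.8% of its transcript. It had 8.78 FPKM in dKO and 13.1 in dHET at P2.5, and 13.96 in dKO and 14.7 in dHET at E15.5, changes of -0.53 and -0.073. The P2.5 change was past 1.5-fold after centring (-0.61) or rescaling (-0.73). Psma7, a subunit of the proteasome core, had 97.8 FPKM in dKO and 86.4 in dHET at P2.5, and 75.8 in dKO and 72.9 in dHET at E15.5. Kctd1, a regulator with a BTB domain, was not counted and had 1.98 FPKM in dKO and 2.87 in dHET at P2.5, and 2.87 in dKO and 3.99 in dHET at E15.5.

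The 17 genes of transcription and chromatin had 9 members counted at each stage, medians of -0.0020 and -0.057, and 0 past 1.5-fold. Zbtb46, a zinc finger factor known from dendritic cells, had 5.98 FPKM in dKO and 4.27 in dHET at P2.5, where it was counted through the dKO library alone. At E15.5 it had 3.85 in dKO and 4.21 in dHET, below the counted level, so no direction is read there. Epc1, of the NuA4 acetyltransferase complex, had changes of -0.15 at both stages. Ss18l1, of the neuronal BAF complex, was not counted, with changes of -0.24 and -0.13. Taf4b, a variant subunit of TFIID, was at or below 1.009 FPKM in all libraries and is too low to read a change from.

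The 7 genes of translation and metabolism had medians of 0.17 over 5 members at P2.5 and 0.027 over 5 at E15.5, and 0 passed 1.5-fold. Eef1a2, the muscle and nerve form of elongation factor 1 alpha, was the most abundant member. It had 160.1 FPKM in dKO and 157 in dHET at P2.5, and 93.8 in dKO and 95.6 in dHET at E15.5, changes of 0.029 and -0.027. It lies 0.759 Mb from Mir1a-1. Uckl1, related to uridine and cytidine kinases, was higher in dKO at both stages, with 17.0 FPKM in dKO and 13.3 in dHET at P2.5, and 13.7 in dKO and 11.4 in dHET at E15.5, changes of 0.33 and 0.25. It shares a deposited locus with Znf512b and Gm16119. Impact, a regulator of the kinase Gcn2, had changes of -0.21 and -0.067.

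The zinc finger cluster of the chromosome 2 window, between 2.31 and 2.86 Mb before Mir1a-1, held 5 listed members, Zfp931 and 4 predicted genes, and 0 of them reached the counted level. Etohi1 (now Zfp971) lies in the same stretch but was in none of the lists, and was counted at E15.5 only, with 5.896 FPKM in dKO and 5.902 in dHET. Near-identical stretches elsewhere in the genome cover 91.9% of the Gm14325 transcript and between 6.89% and 18.5% of the other listed members, so reads may be split among copies. Zfp931 had 0.574 FPKM in dKO and 0.693 in dHET at P2.5, and 1.49 in dKO and 1.27 in dHET at E15.5. The other 11 members, Etohi1 and the RNA polymerase III subunit gene Polr3k among them, were put in none of the lists, and 0 of the 4 counted at P2.5 or the 6 counted at E15.5 passed 1.5-fold.

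The stages share no library, and the direction of change was compared between them. Of 45 members counted at both stages, 33 (73.3%) had the same sign, against 504 of 783 genes (64.4%) on the rest of chromosomes 2 and 18 and 63.0% of 7650 genes in all. By window the counts were 19 of 27 on chromosome 2 and 14 of 18 on chromosome 18. On chromosome 18, 10 of the 14 were below 0 at both stages, and on chromosome 2, 15 of the 19 were above 0 at both. The P2.5 side of chromosome 2 members depended on the scaling. Of 28 counted, 21 were above 0 as deposited, 15 after centring and 13 after rescaling. On the rest of chromosome 2 these counts were 404, 322 and 256 of 635. Of the same-sign genes on the rest of chromosome 18, 60 were below 0 and 57 above, and on the rest of chromosome 2, 226 were above 0 and 161 below. At 1.5-fold, 0 members passed the same way at both stages. Of the 783 genes 1 did, lower in dKO, and of the 7650 genes 26 did upward and 8 downward. At the smaller threshold of an absolute log2 change of 0.32, 7 of 47 members were higher and 3 lower at P2.5. Of all counted genes 17.9% were higher and 6.32% lower (24.3% in either direction), and of the rest of chromosomes 2 and 18, 17.9% and 5.45% (23.4%). At E15.5, 1 of 50 members was higher and 1 lower, where all genes gave 3.0% higher and 1.94% lower (4.94% in either direction) and the rest of the 2 chromosomes 2.5% and 1.9% (4.4%). In the chromosome 18 window, Mpp7 was past it upward and Aqp4 downward at both stages, and in the chromosome 2 window 0 genes were. The 2 members are 4.44% of the 45. Mpp7 was counted through the dKO library alone at both stages, and Aqp4 through the dHET library alone at P2.5. Of all 7650 genes 161 were past it upward and 43 downward at both stages, 2.67%. On the rest of the 2 chromosomes 12 genes were past it upward and 5 downward at both stages, 2.17% of 783.

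**Figure D4:**
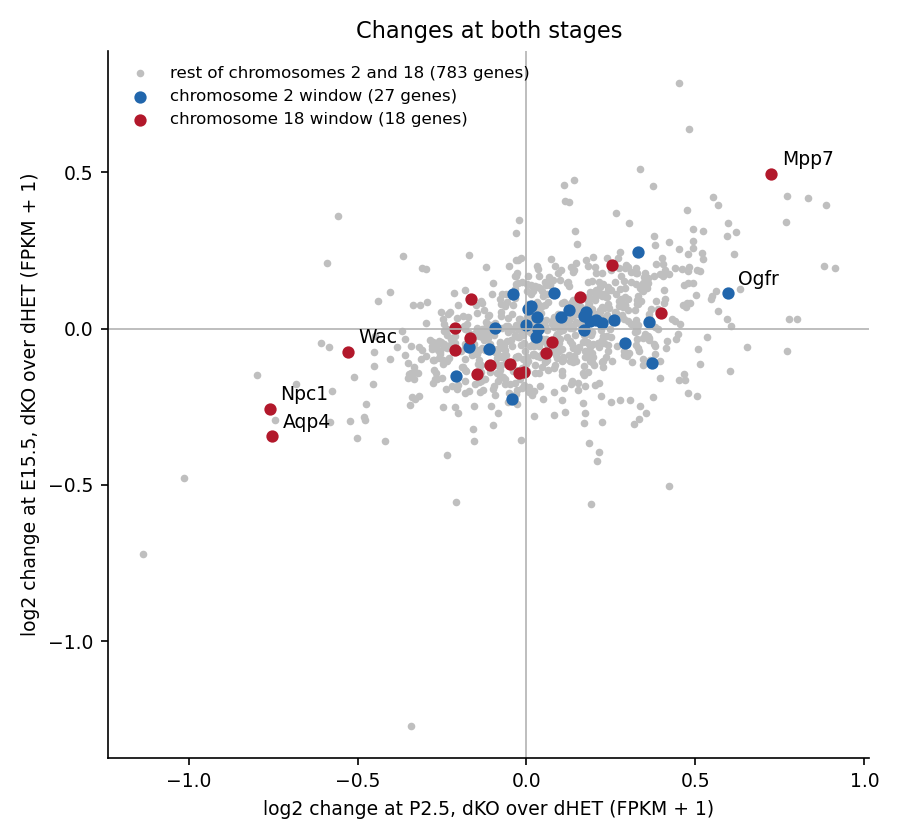
Log2 change at E15.5 (vertical axis) against log2 change at P2.5 (horizontal axis), both dKO over dHET on FPKM + 1, for members counted at both stages and, in grey, other counted genes of chromosomes 2 and 18. Mpp7 lies at 0.72 and 0.50 toward the upper right, Npc1 and Aqp4 lie toward the lower left, and chromosome 2 members spread from -0.21 to 0.60 along the horizontal axis, with the counted ones between -0.23 and 0.25 on the vertical axis.

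The far end of the chromosome 18 window, described after its values were seen, holds Ss18, Psma8, Taf4b, Kctd1 and Aqp4, between 4.001 and 4.76 Mb after the cluster. Of these only Aqp4 was counted at both stages, so no direction is read for them as a group. Ss18 was counted at P2.5, where it had 17.1 FPKM in dKO and 17.99 in dHET, and 63.3% of its transcript has a near-identical copy elsewhere. Below the counted level, the changes of Kctd1 were -0.38 and -0.36, and those of Psma8 were -0.034 and -0.13. Ss18 at E15.5 carried a failed status flag and was not counted there.

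Seed matches of miR-1 were looked for on the transcript strand in the longest annotated 3' UTR of 73 members. The word ACATTCC was in 14 (19.2%), 7 in each window, and the longer ACATTCCA, which contains it, in 7 (9.59%). Of the 11669 genes that reach FPKM 1 somewhere in the series and have a 3' UTR, 11.02% and 4.28% held these words. Their median 3' UTR length was 1198 bases, against 1265 for the members. On chromosome 18 the carriers were Mpp7, Thoc1, Rbbp8, Ankrd29, Impact, Zfp521 and Ss18, and on chromosome 2 Zfp931, Ss18l1, BC006779 (now Helz2), Zbtb46, Dnajc5, Znf512b and Rgs19. At least 2 matches were in 3 members (4.11%), Mpp7, Ankrd29 and BC006779, against 1.32% of the 11669 genes. A match is a word in the sequence and not a measured site.

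The carriers lay on both sides of 0. Of 9 carriers counted at P2.5, 4 lay above 0 with a median of -0.022, against 23 of 38 members without the word and a median of 0.067. At E15.5, 4 of 8 carriers lay above 0, as did 21 of 42 others, with medians of -0.015 and 0.00096. These pools mix the 2 windows, and the order differed between them. At P2.5 the chromosome 2 medians were 0.017 for 4 carriers and 0.15 for 24 others. Those of chromosome 18 were -0.049 for 5 carriers and -0.13 for 14 others. At E15.5 they were 0.062 for 3 carriers and 0.014 for 28 others on chromosome 2, and -0.11 for 5 and -0.058 for 14 on chromosome 18. Mpp7 was the highest carrier at both stages. Ankrd29, an ankyrin repeat gene that was named after its values were seen, had 2.63 FPKM in dKO and 1.52 in dHET at P2.5, and 2.90 in dKO and 2.15 in dHET at E15.5, below the counted level. BC006779, the other member besides Mpp7 with at least 2 matches, was also below it. It had 3.80 FPKM in dKO and 3.64 in dHET at P2.5, and 3.10 in dKO and 2.46 in dHET at E15.5. Of the chromosome 2 sites printed above, that of Zbtb46 belongs to a gene with changes of 0.41 and, below the counted level at E15.5, -0.10. The changes were 0.0049 and 0.062 for Dnajc5, -0.041 and 0.11 for Znf512b, and 0.030 and 0.037 for Rgs19, a regulator of G protein signalling.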

How the data were processed

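Poly-A selected RNA of whole hearts was sequenced, 1 library per group, with reads of 100 bases (single at P2.5, paired at E15.5, per the labels). The submitters' processing notes name TopHat, Bowtie, Cufflinks and mm9; versions and scaling: not given in the sources used here. The deposited values are the authors' FPKM, 1 table per stage, with a deposited q-value from the authors' own comparison. In each, 86 rows displaced by commas in names were realigned on their locus. Rows flagged OK or NOTEST were counted, and starts were numbered from 1.

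Changes were log2 ratios of FPKM + 1 within a stage, computed in Python 3.11.15 with pandas 2.3.3. They were checked on simulated data, with known changes put into dHET values without noise. That checks the arithmetic and not how reliable a call is. With 1 library per group no test or standard error was computed. The deposited FPKM hold no counts, so depth is unknown; low values place 1 fragment 1.12 (P2.5) and 1.20 (E15.5) times higher in dHET than in dKO. Distances run from the deposited locus to Mir1a-1 or Mir133a-1. Near-identical stretches were searched with blastn 2.17.0 at 95% identity over at least 100 bases. All 77 members matched GENCODE M1 (NCBIM37).

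Members, function lists and alternatives were chosen with earlier results of these data known. Named genes were members past 1.5-fold, the 8 largest changes at each stage, the 5 nearest to each miR-1 gene, the 6 highest mean FPKM, the 3 largest mean changes of each function list and any member called by the authors; predicted and small RNA genes only if past the fold. The values of 1 gene named by this rule are not reported here.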

Additional observations from a re-analysis of the deposited data

Results flagged for a closer look

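Mir133a-2, the short gene beside Mir1a-1 on chromosome 2, had a listed FPKM of 1.73 in dKO at P2.5, and was listed at 0 in dHET at P2.5 and in both E15.5 libraries. It drew attention because the value lies above that of the control in a row too low to be counted. Mir1a-1, Mir1a-2 and Mir133a-1 were listed at 0 in all 4 libraries. A short hairpin gene need not be captured in poly-A RNA, so these values check no genotype.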

How the results depend on the processing

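No paired analysis was possible because each group has 1 library. The P2.5 counts, 2 higher and 2 lower, rested on few genes. They were 0 and 0 with a pseudocount of 5 or a fold of at least 2, and 1 and 1 with an FPKM minimum of 10 or within 2 Mb of the deleted genes. There was 1 higher after centring, and 1 after rescaling to 1000000, which put the P2.5 median at -0.13. Without shared loci and near-identical copies, an alternative chosen after seeing the data, 1 was lower, since Npc1 shares its locus. At a log2 change of at least 0.32, 7 were higher at P2.5, and 1 was higher and 1 lower at E15.5. Of the recomputed counts, medians and same-sign share, 101 values stayed near those reported and 15 moved. Near meant an equal count or one within 1.5-fold, a median or change within 0.1, or a share within its binomial interval. These limits are wide for medians this close to 0, and E15.5 counts that stayed at 0 are among the 101. Of the changes recomputed for named genes, 205 stayed near them and 51 moved. Among those past 1.5-fold 0 turned sign, but the shifts, between -0.32 and 0.26, were too small to turn one. Smaller P2.5 changes turned below 0 for Dido1, Eef1a2, Dnajc5 and Kif5b after centring or rescaling, and for Osbpl2 (-0.060) and Osbpl1a (-0.0036) after rescaling. At E15.5 that of Dido1, which was near 0, turned above 0 after centring (0.012). With no counts or replicates, an error of a single FPKM could not be given.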
